A study of Mus musculus with 6 samples.

Results

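The respiratory chain and ATP synthase sit in the inner mitochondrial membrane and turn the oxidation of nutrients into ATP. The genes described here bear the names of nuclear-encoded subunits of complexes I, III, IV and V and were picked by gene symbol. The symbols start with Nduf followed by a, b, c, s or v (without the assembly factors named Ndufaf), Uqcr, Cox4 to Cox8, or Atp5. The group was proposed with earlier results of these data known, so it was given no test of its own. In the deposited table of 37867 gene models the rule found 79 genes, each in 1 row: 38 of complex I, 7 of complex III, 18 of complex IV and 16 of complex V. The symbols also match Cox4nb and Ndufa12l, which are not subunits of these complexes, and Atp5s, the coupling factor B. All of these stay in the counts of subunits below. Without Cox4nb and Ndufa12l 38 genes still fell and the median log2 ratio was -0.89. With Atp5s left out as well, 38 fell and the median was -0.91. The cells were CD4+CD8+ double-positive thymocytes, the stage of T cell development that goes through selection by the T cell receptor, sorted to high purity from mice of the C57bl6 strain. The KO group, 3 libraries, came from mice without the microRNA gene pair mir181a1/b1, and the WT group, also 3 libraries, from wild type mice. The labels give no age, and they do not say whether the libraries of a genotype came from separate animals or which of 2 RNA extraction methods each one had. No row of the table carried the name of the deleted microRNA genes, so the deletion is not checked here.

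Complex I (NADH dehydrogenase) takes electrons from NADH through a matrix arm and pumps protons through a membrane arm. Complex III passes electrons from ubiquinol to cytochrome c, complex IV (cytochrome c oxidase) passes them on to oxygen, and complex V (ATP synthase) lets protons flow back through a rotating membrane ring to make ATP. Each complex has a small catalytic core and many accessory subunits, and all but complex II also hold subunits encoded in mitochondrial DNA. Most double-positive thymocytes are small cells that no longer divide.

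The table gave 1 value per genotype in FPKM, fragments scaled by transcript length and by library depth, with the authors' own test. It holds no values of single libraries, so no SD over replicates can be given and depth is unknown. An error written after ± is a standard error on the log2 scale, namely the size of the ratio divided by the deposited test statistic. The sources used here do not say how that statistic was made, so whether its p values reflect differences between animals, or technical spread alone, is unknown. Summed FPKM came to 297352 in KO and 360688 in WT, and the median log2 ratio of KO over WT over all tested models was -0.17, so the subunits are set against that shift. Markers of the labelled cell type were high in both genotypes: the double-positive genes Cd4, Cd8a, Cd8b1, Rag1, Rag2, Dntt and Cd3e stood between 162 and 1241 FPKM in KO and between 134 and 1683 FPKM in WT, and none of them was called. Those markers of other cells that were found were low, and of these the authors tested only Hbb-b1, Ccr7 and Klf2, which were not called. No row carried the names Lyz2 (macrophages), Hba-a1 (erythroid cells), Epcam (thymic epithelium) or S1pr1 (single-positive T cells). The sums leave these genes out and say nothing on their level. The B cell markers summed to 0.216 FPKM in KO and 0.314 FPKM in WT, and the macrophage and dendritic cell markers to 0.279 FPKM in KO and 0.342 FPKM in WT. The erythroid markers summed to 0.567 FPKM in KO and 1.17 FPKM in WT, the thymic epithelial markers to 0.0194 FPKM in KO and 0.0558 FPKM in WT, and markers of single-positive and innate-like T cells to 4.25 FPKM in KO and 4.31 FPKM in WT. Foxn1 and Zbtb16 were listed at 0 in KO.

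Subunits of all 4 complexes fell in KO thymocytes, and no subunit rose. Of the 79 genes, the authors tested 74. Of these, 71 had a lower value in KO than in WT, as did 8250 of all 13834 tested models. By the authors' deposited table, with called meaning a q under 0.05, 38 fell (51.4%) and none rose, while of all 13834 tested models 17.1% were called, 15.3% lower and 1.79% higher in KO. No subunit with a higher value in KO had an unadjusted p under 0.05 either (0 of 3). With ratios centred on the median of all models 25 subunits were still lower (10.8% of all models lower, 3.6% higher), and with both genotypes scaled to the same total FPKM 23 were (8.65% lower, 6.19% higher). At a q under 0.01 there were 25, against 10.1% of all models. With the trend of the ratio with transcript GC content and length removed, 2 of 72 were still called and the median was -0.22, and with the GC trend alone 10 were, as described further on. Centring and scaling both ended the calls of Ndufa6, Ndufb4, Ndufb8, Ndufb9, Ndufb10, Ndufs5, Uqcrh, Cox6c, Cox7a1, Atp5a1, Atp5g3, Atp5h and Atp5o, and scaling also that of Atp5e; where these are said to have fallen, the call is that of the deposited values. The median log2 ratio of the 73 subunits with both values above 0 was -0.88, with quartiles of -1.44 and -0.54. The share that fell was 56.8% in complex I (21 of 37 tested), 42.9% in complex III (3 of 7), 50% in complex IV (7 of 14) and 43.8% in complex V (7 of 16). The complexes were not tested against each other. Summed over its members, complex I stood at 1013 FPKM in KO and 2012 FPKM in WT, complex III at 379 FPKM in KO and 584 FPKM in WT, complex IV at 644 FPKM in KO and 1291 FPKM in WT, and complex V at 894 FPKM in KO and 1448 FPKM in WT. Together the 79 genes held 0.985% of all FPKM in KO and 1.48% in WT. In bulk RNA, fewer cells with a transcript and less of it per cell cannot be told apart.

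**Figure D1:**
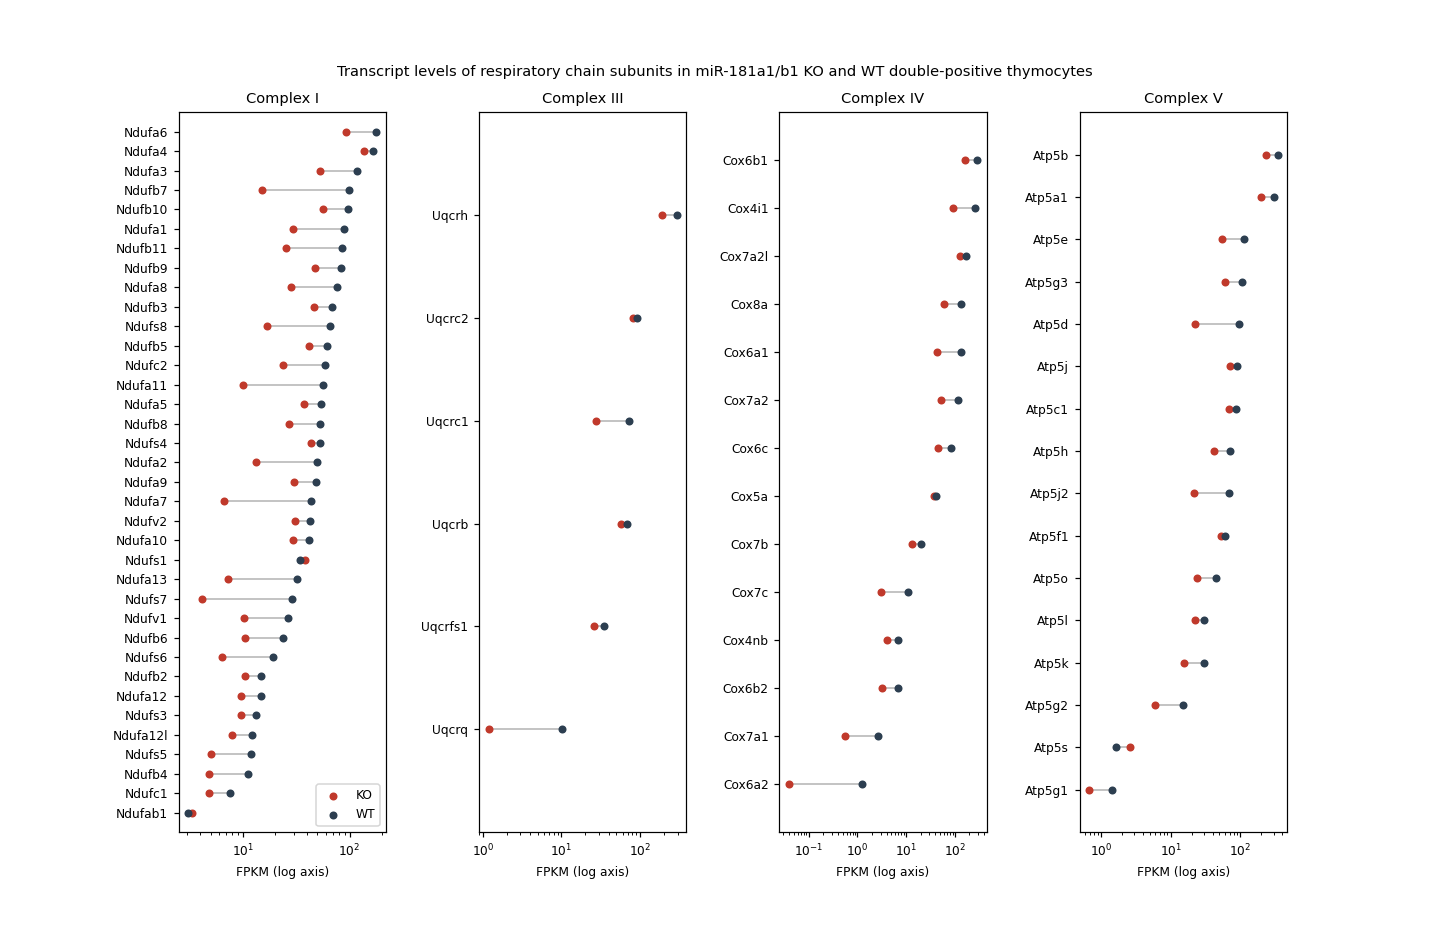
FPKM of tested subunits on a log axis, with KO in red and WT in dark blue joined by a line, in 1 panel per complex and sorted by the WT value. KO lies left of WT for nearly every subunit; Ndufs1, Ndufab1 and Atp5s are the 3 with a higher KO value, and Uqcr, listed at 0 in KO, and a gene not reported here are left out.

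In complex I, the core subunits of the matrix arm had both called and uncalled members. Ndufs7, which holds the last iron-sulphur cluster before ubiquinone, stood at 4.20 FPKM in KO and 29.1 FPKM in WT, a log2 ratio of -2.79 ± 0.44 (q = 3.25e-08 in the authors' deposited table). Its neighbour in the chain, Ndufs8, stood at 16.9 FPKM in KO and 65.7 FPKM in WT (log2 -1.96 ± 0.35), and Ndufv1, the subunit that binds NADH and the flavin, at 10.3 FPKM in KO and 26.6 FPKM in WT (log2 -1.37 ± 0.29). All of these fell. Ndufs1, Ndufs3 and Ndufv2 did not pass: Ndufs1, the largest iron-sulphur subunit, stood at 38.0 FPKM in KO and 34.7 FPKM in WT (q = 0.848 in the authors' deposited table), Ndufs3 at 9.68 FPKM in KO and 13.2 FPKM in WT (log2 -0.45 ± 0.31), and Ndufv2 at 31.1 FPKM in KO and 42.4 FPKM in WT (log2 -0.45 ± 0.26). Ndufs1 and Ndufs7 lie on the same electron path; their KO values were 38.0 and 4.20 FPKM, and their WT values 34.7 and 29.1 FPKM. Whether their ratios differ was not tested. The models of Ndufs1 and Ndufs8 were 1.87 and 5.33 times as long as the reference gene. Each overlapped 1 other model of at least 1 FPKM, so the values of both may hold reads of other genes.

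Around this core, Ndufa7 had the lowest ratio among the accessory subunits of the matrix arm. It stood at 6.67 FPKM in KO and 43.5 FPKM in WT, a 6.51-fold difference (log2 -2.70 ± 0.37, q = 9.23e-11 in the authors' deposited table). Ndufa2, a small subunit with a thioredoxin-like fold, fell to 13.3 FPKM in KO against 49.9 FPKM in WT. Ndufs6, a zinc-binding subunit, fell to 6.38 FPKM in KO against 19.3 FPKM in WT, and Ndufa6 to 93.3 FPKM in KO against 178 FPKM in WT. Ndufs4, which stabilises the NADH-binding module and whose loss in mice causes a fatal encephalopathy, stood at 43.9 FPKM in KO and 52.7 FPKM in WT and was not called. Ndufa5, Ndufa9 and Ndufa12 were also not called, at log2 ratios between -0.68 and -0.54; Ndufa9 was nearest to the threshold (q = 0.068 in the authors' deposited table). Over the whole matrix arm, 8 of 15 subunits fell, where 15.3% of all tested models did.

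In the membrane arm 13 of 19 subunits fell, where 15.3% of all tested models did, and the median log2 ratio was -1.19. All 19 had the lower value in KO, as did 8250 of all 13834 tested models. Ndufb7, a subunit on the intermembrane face, had the smallest p of all subunits and stood at 15.0 FPKM in KO and 99.2 FPKM in WT (log2 -2.72 ± 0.33, q = 1.54e-13 in the authors' deposited table). Its model lies at chr8:86090656-86095522 in mm9. Ndufa11, needed to hold the membrane arm together, fell to 10.1 FPKM in KO against 56.5 FPKM in WT. Ndufa13, also known as GRIM-19 for its link to interferon-induced cell death, fell to 7.27 FPKM in KO against 32.0 FPKM in WT. The X-linked subunits Ndufb11 and Ndufa1 fell to 25.4 and 29.8 FPKM in KO, against 84.5 and 88.8 FPKM in WT. The others that fell were Ndufa8, Ndufa3, Ndufc2, Ndufs5, Ndufb4, Ndufb8, Ndufb9 and Ndufb10, at log2 ratios between -1.44 and -0.77. Not called were Ndufa10, Ndufb2, Ndufb3, Ndufb5, Ndufb6 and Ndufc1. Their log2 ratios lay between -1.19 and -0.49, the lowest being that of Ndufb6 (-1.19 ± 1.06).

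A few genes of the Nduf family stand apart by role. Ndufab1, the mitochondrial acyl carrier protein that is present in both arms, stood at 3.36 FPKM in KO and 3.09 FPKM in WT, a log2 ratio of 0.12 ± 0.85. Ndufa4, which later work places in complex IV, stood at 135 FPKM in KO and 167 FPKM in WT and was not called. Its hypoxia-induced relative Ndufa4l2 was listed at 0 in both genotypes and was not tested. Ndufa12l, matched by its symbol, is an older name of the assembly factor Ndufaf2 in the RefSeq table; it stood at 7.99 FPKM in KO and 12.1 FPKM in WT.

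In complex III the lowest ratio of any called subunit belonged to Uqcrq, the small ubiquinone-binding subunit, at chr11:53241423-53244329 in mm9. It stood at 1.18 FPKM in KO and 10.2 FPKM in WT, an 8.66-fold difference (log2 -3.11 ± 0.39, q = 8.96e-13 in the authors' deposited table). With a pseudocount of 1 its log2 ratio was -2.36, above those of Ndufb7 (-2.64), Ndufa7 (-2.54) and Ndufs7 (-2.53). Of the core proteins, Uqcrc1 fell to 27.2 FPKM in KO against 72.0 FPKM in WT, while its partner Uqcrc2 stood at 80.1 FPKM in KO and 91.4 FPKM in WT (q = 0.683 in the authors' deposited table). The hinge subunit Uqcrh stood just inside the threshold, at 187 FPKM in KO and 294 FPKM in WT (q = 0.0494 in the authors' deposited table). The Rieske iron-sulphur protein Uqcrfs1, at 25.9 FPKM in KO and 35.0 FPKM in WT, and Uqcrb, at 56.8 FPKM in KO and 68.3 FPKM in WT, were not called. Uqcr, now Uqcr11, was listed at 0 in KO and at 13.3 FPKM in WT (q = 0.436 in the authors' deposited table). Its model was 34597 bases long, 9.02 times the reference gene, and overlapped models of the transcription factor gene Tcf3, so no ratio is given.

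Complex IV combines a catalytic core made in mitochondria with nuclear subunits that exist as common and tissue-restricted isoforms. Of its 10 common subunits, 6 fell, where 15.3% of all tested models did. Cox6a1 stood at 43.4 FPKM in KO and 136 FPKM in WT (log2 -1.64 ± 0.28, q = 4.41e-07 in the authors' deposited table). Cox4i1, which binds the core subunits early in assembly, fell to 92.2 FPKM in KO against 265 FPKM in WT. Cox7a2 fell to 52.0 FPKM in KO against 118 FPKM in WT, Cox8a to 59.4 FPKM in KO against 137 FPKM in WT, Cox6c to 44.6 FPKM in KO against 82.4 FPKM in WT, and Cox7c to 3.12 FPKM in KO against 11.2 FPKM in WT. Cox5a, the partner of Cox4i1 in the same assembly step, stood at 36.8 FPKM in KO and 41.1 FPKM in WT (q = 0.812 in the authors' deposited table). Cox7a2l, a factor that links complexes III and IV into supercomplexes, stood at 129 FPKM in KO and 173 FPKM in WT and was not called. Cox7b stood at 13.2 FPKM in KO and 20.3 FPKM in WT, and neither it nor Cox6b1 was called. The model of Cox6b1 spanned 230809 bases, 24.8 times the reference gene, and overlapped 10 other models of at least 1 FPKM, so its 162 FPKM in KO and 289 FPKM in WT may hold reads of other genes. No row carried the name Cox5b, which is not analysed here.

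Each tissue-restricted isoform of complex IV below stood lower than its common counterpart in both genotypes. Cox7a1, the heart and muscle form, stood at 0.554 FPKM in KO and 2.66 FPKM in WT (log2 -2.27 ± 0.85) and fell, at q = 0.0451 in the authors' deposited table. With ratios centred on the median of all models its adjusted p was 0.0759, and with a pseudocount of 1 its log2 ratio was -1.24. Cox6b2, the testis form, stood at 3.23 FPKM in KO and 6.81 FPKM in WT and was not called. Cox6a2, the heart and muscle form of Cox6a1, stood at 0.0394 FPKM in KO and 1.25 FPKM in WT (log2 -4.98 ± 2.18), and its model was 54.3 times as long as the reference gene. Cox4i2, the hypoxia-induced form of lung, was not tested, at 0.0174 FPKM in KO and 0.0582 FPKM in WT. Cox7b2, Cox8b and Cox8c were listed at 0 in both. Cox4nb, now Emc8, shares only the start of its symbol and a place beside Cox4i1 in the genome. It stood at 4.11 FPKM in KO and 6.90 FPKM in WT, just outside the threshold (q = 0.0553 in the authors' deposited table).

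In complex V the subunits of the catalytic head, Atp5b and Atp5a1, had the highest FPKM of the whole group in both genotypes. Atp5b, the catalytic beta subunit, stood at 233 FPKM in KO and 340.3 FPKM in WT and was just outside the threshold (q = 0.0641 in the authors' deposited table). Atp5a1, the alpha subunit, fell to 197 FPKM in KO against 299 FPKM in WT (log2 -0.60 ± 0.22). Atp5c1, the gamma shaft, stood at 68.2 FPKM in KO and 85.4 FPKM in WT and was not called. The small subunits at the foot of the shaft also fell: Atp5d (delta) stood at 22.7 FPKM in KO and 96.5 FPKM in WT (log2 -2.09 ± 0.30, q = 1.29e-09 in the authors' deposited table), and Atp5e (epsilon) at 54.5 FPKM in KO and 111 FPKM in WT. Whether these differences between subunits of complex V exceed their errors was not tested.

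The membrane ring of ATP synthase is built from subunit c, whose mature protein is the same from 3 genes. Atp5g3 gave most of the transcript and fell to 60.3 FPKM in KO against 104 FPKM in WT (q = 0.0439 in the authors' deposited table). Atp5g2 stood at 5.89 FPKM in KO and 14.8 FPKM in WT, and Atp5g1 at 0.684 FPKM in KO and 1.43 FPKM in WT (q = 0.0559 in the authors' deposited table); neither was called. The order of the 3 genes was the same in both genotypes. Among the stalk and membrane subunits, Atp5j2 fell to 21.5 FPKM in KO against 69.4 FPKM in WT, Atp5o, the oligomycin-sensitivity protein, to 24.0 FPKM in KO against 44.2 FPKM in WT, and Atp5h to 42.4 FPKM in KO against 71.1 FPKM in WT. Atp5f1, the b subunit, stood at 53.1 FPKM in KO and 60.4 FPKM in WT, and was not called, nor were Atp5j, Atp5k and Atp5l, at log2 ratios between -0.93 and -0.35. Atp5s, the coupling factor B, was the gene with the highest ratio of all, at 2.64 FPKM in KO and 1.63 FPKM in WT, and did not pass (q = 0.386 in the authors' deposited table).

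**Figure D2:**
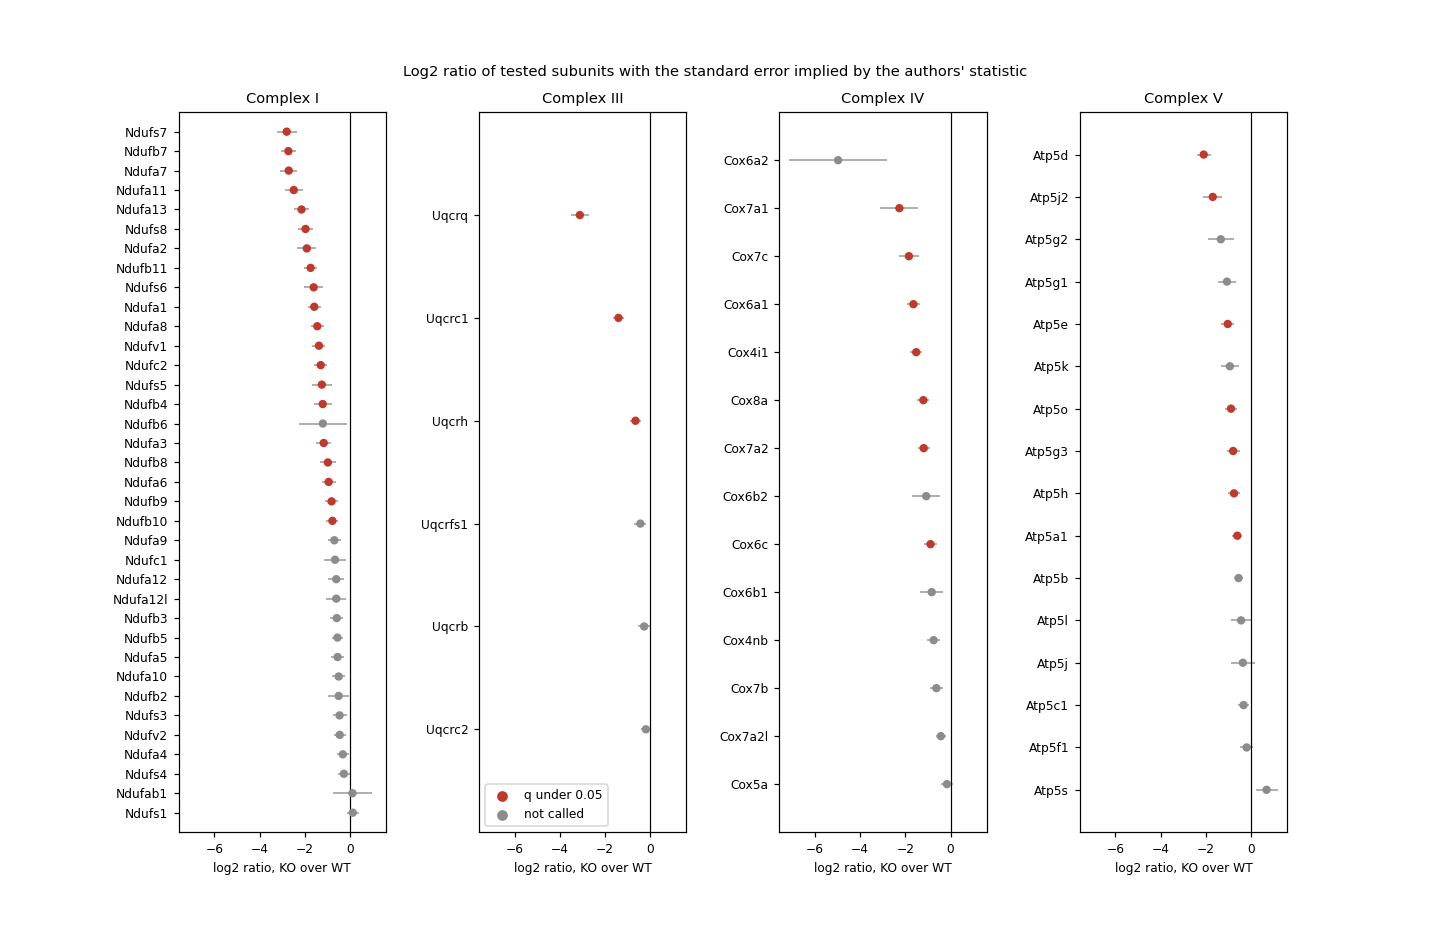
Log2 ratio of KO over WT for tested subunits with both values above 0, less a gene not reported here, in 1 panel per complex, with bars of 1 standard error, as implied by the test statistic; red points passed q under 0.05 by the authors' deposited table and grey points did not. Every red point lies below 0, from -3.11 for Uqcrq to -0.60 for Atp5a1.

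Genes that work beside these subunits gave a mixed count. Of 41 tested genes in lists of complex II, cytochromes, assembly factors and regulators, 10 fell and none rose, with a median log2 ratio of -0.44, where 15.3% of all tested models and 18.7% of tested coding genes fell. In complex II, the succinate dehydrogenase that feeds the chain, Sdhb, Sdhc and Sdhd fell, while the flavin subunit Sdha stood at 71.3 FPKM in KO and 72.4 FPKM in WT. Cyc1, the haem subunit of complex III that the symbol rule does not reach, fell to 18.4 FPKM in KO against 46.0 FPKM in WT. Cycs, somatic cytochrome c, stood at 8.61 FPKM in KO and 9.97 FPKM in WT and was not called. The copper chaperone Cox17 fell to 6.84 FPKM in KO against 33.6 FPKM in WT (log2 -2.30), and Cox19, Higd2a and Ecsit also fell. None of the 6 assembly factors of complexes III and V was called, the nearest being Atpaf2 at 7.73 FPKM in KO and 12.7 FPKM in WT (q = 0.0745 in the authors' deposited table). Among the regulators, only Polrmt, the mitochondrial RNA polymerase, and Ppargc1b, a coactivator of mitochondrial genes, fell of 14 tested, a share near that of all models. Their transcripts are rich in GC, at 60.9% and 57.8%, a range in which 54.4% of tested coding genes fell. Of the other genes in these lists that fell, Cyc1 and Ecsit, at 55.7% and 55.4%, lay in the same range. Sdhb, Cox19 and Higd2a lay between 51.0% and 54.9%, where 16.9% of tested coding genes fell from 50 to 55% GC. Cox17, Sdhc and Sdhd lay between 46.0% and 49.4%, where 3.00% fell from 45 to 50% GC. Polrmt stood at 2.24 FPKM in KO and 9.63 FPKM in WT, and Ppargc1b at 0.671 FPKM in KO and 1.72 FPKM in WT. The factors that bind respiratory gene promoters were not called: Nrf1 stood at 27.0 FPKM in KO and 35.8 FPKM in WT, Gabpa at 37.3 FPKM in KO and 31.9 FPKM in WT, and Yy1 at 54.7 FPKM in KO and 46.9 FPKM in WT. The models of Gabpa and Atp5j overlap, so the value of each may hold reads of the other. Of the subunits encoded in mitochondrial DNA, the only listed name in the table, mt-Nd4, was marked by the authors as having too much data and carried no value.

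The ratios of the subunits went with the base composition of their transcripts. Ndufs7, at 60.7% GC in its reference transcript, and Atp5d, at 61.1%, had log2 ratios of -2.79 and -2.09, while Ndufs1, at 45.1%, and Atp5s, at 40.2%, had the highest ratios, 0.13 and 0.70. Over the 73 subunits, the rank correlation (Spearman's rho) between GC content and the log2 ratio was -0.642, against -0.744 over 10045 tested coding genes, a description across genes that share the same libraries. Below 45% GC none of 10 subunits was called in the authors' deposited table (2 had an unadjusted p under 0.05), from 45 to 50% 6 of 19 fell, from 50 to 55% 16 of 25 fell, and from 55% upwards 16 of 19 fell. In each of these ranges the subunits had a lower median log2 ratio than all tested coding genes: -0.38 against 0.22, -0.60 against -0.02, -0.93 against -0.45, and -1.52 against -1.09, from the lowest GC range to the highest. The share of all tested coding genes that fell was 0.661%, 3.00%, 16.9% and 54.4% in the same ranges. Subunit transcripts were also short, with a median of 765 bases against 2931 bases over tested coding genes, and the rho with length was 0.389 over the subunits.

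**Figure D3:**
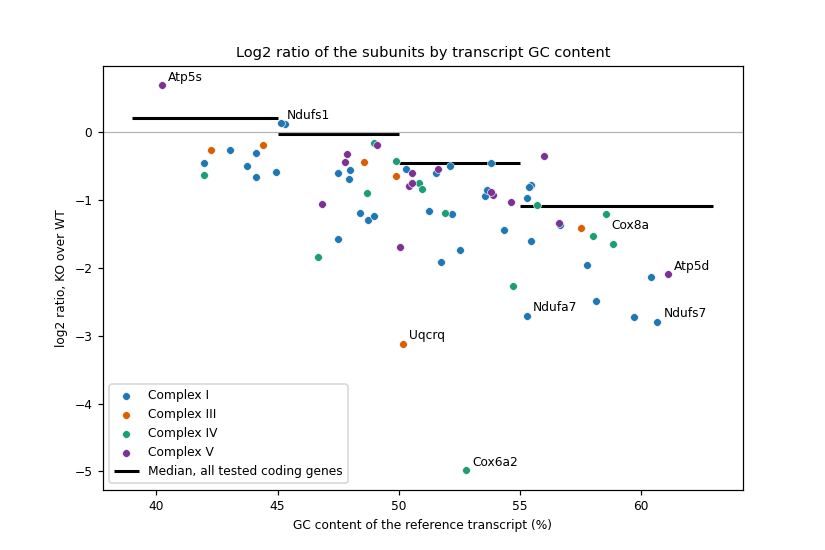
Log2 ratio of KO over WT of each tested subunit against the GC content of its reference transcript, coloured by complex, with black bars for the median of all tested coding genes in 4 ranges of GC content. The subunits slope downwards with GC content as the black bars do; their median is -0.38 below 45% GC and -1.52 from 55% upwards, against 0.22 and -1.09 for all tested coding genes.

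When the trend of the log2 ratio with GC content and length over 9004 coding genes was removed, the subunits lay closer to 0. The median was -0.40 in complex I, with 28 of 37 subunits below 0, and -0.22 in complex III, -0.04 in complex IV and -0.0014 in complex V. Of all 9004 genes in the fit, 4470 lay below 0. Only Uqcrq, at -2.80, and Ndufa7, at -1.38, were still called, 2 of 72 subunits, where 1.01% of all coding genes in that fit were called lower and 0.855% higher. With the trend of GC content alone 10 were called, against 1.58% of all genes; they include Ndufb7, Ndufa11, Cox7c and Atp5j2. Ndufb7 went to -0.92 and Ndufs7 to -0.98, with adjusted p values of 0.146 and 0.356 from the normal tail of the corrected ratio over its implied error, while Cox6a1 went to 0.09 and Cox8a to 0.51. In the membrane arm of complex I, 16 of 19 subunits were still below 0, with a median of -0.58, and in the matrix arm 11 of 15, with a median of -0.33. In complex V, 4 of 5 subunits of the head and central stalk lay below 0, with a median of -0.15. Of the peripheral stalk and other membrane subunits 6 of 7 lay above 0, with a median of 0.06. Among these, Atp5h (0.0086) and Atp5o (0.056) lay near 0. The models of Atp5j and Atp5k were over 2 times as long as the reference gene. Those of Atp5j and Atp5f1 overlapped the models of Gabpa and Wdr77. Atp5f1, Atp5k and Atp5l have named pseudogene copies, as does Atp5c1 of the head. Their values may hold reads of other genes. Atp5d, the lowest of complex V as deposited, went to -0.34. Each corrected ratio rests on 1 reference transcript per gene. That of Uqcrq has 1521 bases, 1134 of them in the 3′ UTR, and other transcripts were not run. Whether the GC trend is a property of the libraries or of the genotype cannot be told apart with 1 value per genotype, and the difference between complexes was not tested either.

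**Figure D4:**
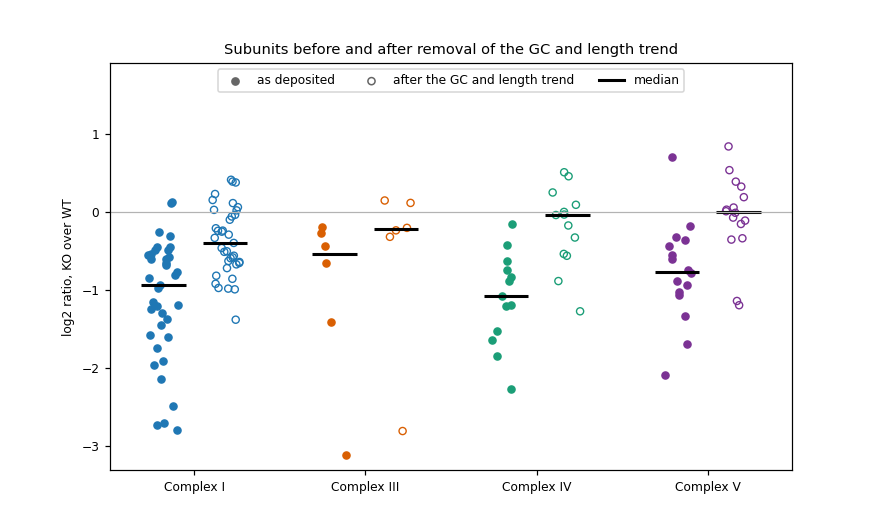
Log2 ratio of KO over WT of the 72 subunits in the fit, by complex, as deposited (filled points) and after removal of the trend with transcript GC content and length (open points), with medians as black bars. The medians move from -0.93 to -0.40 in complex I and to -0.0014 in complex V; Uqcrq remains the lowest open point.

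The microRNAs made from the deleted genes share a seed, bases 2 to 8 in capitals, by which they pair with target transcripts. Genes at another locus, mir181a2/b2, are known to make the same mature forms, and mature microRNAs are not analysed here. Both mature forms are shown because the seed sets which transcripts could be direct targets (RefSeq, GRCm38.p6, chromosome 1).
mmu-miR-181a-5p: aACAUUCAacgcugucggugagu
mmu-miR-181b-5p: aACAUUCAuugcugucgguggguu
The match to this seed, TGAATGT, was present in the reference 3′ UTR of 1 of 73 subunits (1.37%), against 16.7% of 9871 tested coding genes. That gene was Atp5l, at 22.4 FPKM in KO and 30.3 FPKM in WT and not called. The 3′ UTRs of the subunits were short, with a median of 159 bases against 985 bases.

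Promoters of respiratory genes are known for sites of the ETS factor GABPA, of NRF1 and of YY1. Of the 79 genes, 64 had promoters in the RefSeq table for GRCm38.p6, from 250 bases before to 50 bases after a start, read on both strands. The letters CCGGAAG of the ETS family were present for 14 of 64 genes (21.9%), against 9.93% of all 27025 genes with a promoter. The letters GCATGCG from the core of the NRF1 site were present for 10 of 64 (15.6%), against 4.01% of all genes. The letters AAGATGG from the core of the YY1 site were present for 11 of 64 (17.2%), against 7.28% of all genes. The GC box GGGCGG was present for 27 of 64 (42.2%), against 38.2% of all genes. Subunits that fell and tested subunits that were not called, 31 of each, had the ETS letters in 7 and 7 genes, the NRF1 letters in 5 and 5, the YY1 letters in 6 and 5, and the GC box in 10 and 16. These matches are descriptions of letters in a window and not of binding.

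The promoters below are those of the subunit with the smallest p in each complex among genes with 1 promoter in the table, and of Ndufs4 as the complex I subunit of that kind with the ratio nearest 0, Ndufab1 left aside. Capitals mark matches to the 4 motifs on either strand; in Uqcrc1 and Cox6a1 the NRF1 letters match both strands of 1 overlapping stretch. They lie at chr8:83566508-83566807 (plus strand, Ndufb7), chr13:114388045-114388344 (minus strand, Ndufs4), chr9:108936398-108936697 (plus strand, Uqcrc1), chr5:115348909-115349208 (minus strand, Cox6a1) and chr5:145191492-145191791 (minus strand, Atp5j2). Their GC content was 62.7%, 45.3%, 56.3%, 63% and 54.7%, in the same order.
Ndufb7: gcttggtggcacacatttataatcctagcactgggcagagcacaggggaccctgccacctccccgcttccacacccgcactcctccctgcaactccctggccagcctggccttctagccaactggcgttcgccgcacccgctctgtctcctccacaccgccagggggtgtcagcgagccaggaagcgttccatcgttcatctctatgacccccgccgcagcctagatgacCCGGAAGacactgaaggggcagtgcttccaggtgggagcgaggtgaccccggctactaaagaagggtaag
Ndufs4: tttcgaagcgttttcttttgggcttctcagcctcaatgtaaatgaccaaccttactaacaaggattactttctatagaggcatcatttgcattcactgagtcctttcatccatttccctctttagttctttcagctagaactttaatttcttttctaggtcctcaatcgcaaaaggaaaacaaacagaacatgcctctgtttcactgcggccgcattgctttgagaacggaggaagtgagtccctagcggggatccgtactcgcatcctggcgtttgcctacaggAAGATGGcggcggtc
Uqcrc1: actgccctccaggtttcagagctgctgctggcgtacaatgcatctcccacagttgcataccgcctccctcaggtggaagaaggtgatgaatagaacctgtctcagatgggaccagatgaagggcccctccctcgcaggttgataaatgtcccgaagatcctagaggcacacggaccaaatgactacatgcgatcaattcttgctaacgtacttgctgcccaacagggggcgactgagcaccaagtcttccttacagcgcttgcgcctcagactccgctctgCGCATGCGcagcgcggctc
Cox6a1: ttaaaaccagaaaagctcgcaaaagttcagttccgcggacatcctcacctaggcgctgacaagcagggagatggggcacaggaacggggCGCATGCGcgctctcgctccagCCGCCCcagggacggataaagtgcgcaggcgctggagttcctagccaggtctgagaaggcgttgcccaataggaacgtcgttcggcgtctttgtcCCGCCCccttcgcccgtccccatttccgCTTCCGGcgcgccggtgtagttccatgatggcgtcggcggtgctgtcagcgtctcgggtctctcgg
Atp5j2: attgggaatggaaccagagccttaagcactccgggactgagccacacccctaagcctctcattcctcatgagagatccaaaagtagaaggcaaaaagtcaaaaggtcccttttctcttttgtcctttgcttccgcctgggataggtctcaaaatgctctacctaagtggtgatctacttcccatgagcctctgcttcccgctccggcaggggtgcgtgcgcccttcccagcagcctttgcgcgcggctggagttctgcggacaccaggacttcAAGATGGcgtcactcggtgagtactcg
The ETS letters stand in Ndufb7 and Cox6a1, the NRF1 letters in Uqcrc1 and Cox6a1, and the YY1 letters in Atp5j2 and Ndufs4. Ndufb7, Uqcrc1, Cox6a1 and Atp5j2 were picked among subunits that fell, so this set cannot show whether the letters go with a fall. Ndufs4 was not called.

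Some subunit values rest on models that reach beyond the gene. Of the tested subunits, 11 had a model over 2 times as long as the reference gene. Of these, 3 fell, namely Ndufa2, Ndufa6 and Ndufs8, where 15.3% of all tested models did. In all, 15 of the 79 genes overlapped at least 1 other model of at least 1 FPKM. The library kit marks no strand, so reads of antisense neighbours, such as the antisense models listed at Ndufa6 and Atp5j2, cannot be told from their own. For 9 subunits the RefSeq table holds a named pseudogene copy, among them Uqcrh, Ndufs5 and Cox7c, which fell, and Atp5k with 4 copies. Their values are uncertain where reads were shared.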

How the data were processed

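RNA of 6 libraries, 3 KO and 3 WT, grouped by the labels, was sequenced after TruSeq RNA library preparation. The submitters' processing notes name TopHat2 and the build mm9; the sources used here do not give the counting or testing tool, the annotation or how shared reads were treated. Per the file headers, the deposited table gave 1 FPKM value per genotype, a log2 ratio, a test statistic (a score) and p-values and q-values. It has no column for a single library and no read count, so no depth or interval is known.

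Recomputing the Benjamini-Hochberg adjustment over the tested models gave the deposited q-values (largest difference 1.89e-06). The log2 ratio was turned to KO over WT, and its implied standard error is its size over the statistic. Called means a q under 0.05. Per symbol the row with the highest sum was kept. The members and lists were chosen with earlier results of these data known, so no list was tested. Any member could be named, with full values for core subunits, the 4 smallest p, the 3 ratios nearest 0 and genes near the threshold in each complex. A design for values of single libraries did not apply.

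GC content and length came from 1 GENCODE M21 (GRCm38) coding transcript per gene, left out when longer than 1.2 times the model. The trend was a robust regression on cubic splines over 9004 genes of at least 1 FPKM (statsmodels 0.14.6, scipy 1.17.1). Its p values come from the normal tail of the residual over the implied error, adjusted over those genes. The step was also run on simulated ratios made from the fitted trend and the implied errors. That run cannot show whether the trend or the errors hold for these data. Alternatives covered scaling, thresholds, filters, pseudocount, membership and the trend. No coordinate was converted between builds. Single values of some genes are not reported here.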

Additional observations from a re-analysis of the deposited data

How the results depend on the processing

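No paired analysis was possible because the table holds 1 value per genotype, and for the same reason leaving out single libraries was not run. The median of all members and of each complex was below 0 under each alternative run, but after the GC and length trend complex V had 8 members below 0 and 8 above, and complex IV 8 below and 5 above. No member was called higher under the alternatives that make calls; the pseudocount and the setting without the test status give medians and ratios only. Of the 38 subunits called lower, 25 remained when ratios were centred on the median, 23 when the genotypes were scaled to the same total FPKM (a shift of 0.28 on the log2 scale), and 25 at a q under 0.01. In complex V the count went to 3, 2 and 3 of 16 under these settings. Of all models, 10.8%, 8.65% and 10.1% were lower in KO under the same settings. The median of complex III went to -0.26 under scaling by the total. After the GC and length trend 2 subunits remained, 1 in complex I, 1 in complex III, 0 in complex IV and 0 in complex V, with medians of -0.22 for all, -0.40, -0.22, -0.040 and -0.0014. After the GC trend alone, added after seeing the data, 10 remained, 7, 1, 1 and 1 by complex; the median was -0.47 for all, -0.46 in complex IV and -0.34 in complex V. The causes were not tested.

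Single ratios that changed sign were, after the GC and length trend, those of Ndufa4 (0.11), Ndufa5 (0.020), Ndufa6 (0.15), Ndufb8 (0.23), Ndufb9 (0.39), Ndufb10 (0.41), Ndufs3 (0.38), Uqcrb (0.15), Uqcrh (0.12), Cox5a (0.46), Cox6a1 (0.091), Cox6b2 (0.25), Cox7a2l (0.00028), Cox8a (0.51), Atp5e (0.32), Atp5f1 (0.029), Atp5h (0.0086), Atp5j (0.84), Atp5k (0.39), Atp5l (0.19) and Atp5o (0.056). Under scaling by the total they were those of Ndufs4 (0.017), Uqcrb (0.012), Uqcrc2 (0.089), Cox5a (0.12) and Atp5f1 (0.093), and under centring that of Cox5a (0.0084). None of these was called after the change. With a minimum of 1 FPKM, 39 members were called (17.8% of all models), the added one being Cox4nb. Leaving out wide models or genes with pseudogene copies, both added after seeing the data, left 35 each. With a pseudocount of 1, the ratios of Uqcrq (-2.36), Cox6a2 (-1.11), Cox7a1 (-1.24) and Atp5g1 (-0.53) moved beyond their error and 69 did not. Without read counts, how far depth limits the low subunits is unknown.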
